A study of Homo sapiens with 8 samples.

Results

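The 3 noncoding RNAs described here share a promoter region or exons with a protein-coding gene, and were compared with it in HEK293T cells overexpressing the potassium channel subunit KCNQ3. They were GOT1-DT with GOT1, VLDLR-AS1 with VLDLR, and ZNF503-AS2 with ZNF503. GOT1-DT and ZNF503-AS2 stood higher in KCNQ3-overexpressing cells and VLDLR-AS1 lower, while the 3 protein-coding partners had 0.858 to 1.06 times the control level. The 6 genes, of 19280 tested, were selected on measured values of this same contrast, so their levels and fold changes are given as a description, without a test. All 6 passed the filter on low counts.

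HEK293T cells, grown from human embryonic kidney and made to express the SV40 large T antigen, take up plasmids readily. In 4 libraries the cells had been transfected with a tagged coding sequence of human KCNQ3, and in 4 control libraries they were normal cells. Per the labels, RNA was taken 48 hours after transfection, and 1 transfection protocol stands with every sample, so it remains unknown whether control cells were mock transfected. The 4 libraries of a group are called biological replicates without word of separate cultures, so the p-values below cover only how these libraries vary, and that variation may be technical. KCNQ3 itself had 15283, 15874, 19709 and 18603 counts in the overexpressing libraries, against 4, 5, 0 and 2 in the controls. Library totals ran from 24020097 to 30734915 estimated counts. HEK293T-expressed markers (7 genes such as VIM and NEFM) summed to 996 to 1114 CPM (a gene's counts relative to its library's total, TMM-scaled) in overexpressing libraries and 1042 to 1210 CPM in controls. Blood markers summed to 2.14 to 2.61 CPM and 1.72 to 2.66 CPM, with PTPRC, CD3E and HBB at 0. Fibroblast markers summed to 15.8 to 20.7 CPM and 16.2 to 20.2 CPM, with COL1A2 and DCN at 0. Endothelial markers reached at most 0.0829 CPM in overexpressing libraries and were at 0 in controls.

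Many mammalian promoters start transcription in both directions. The RNA running away from a gene, called a divergent transcript, is usually less abundant than the messenger RNA and many are removed by the nuclear exosome. An antisense RNA runs across the gene on the other strand and can share exon sequence with it. GOT1 encodes the cytosolic aspartate aminotransferase, which interconverts aspartate and glutamate and takes part in the malate-aspartate shuttle. VLDLR encodes the very low density lipoprotein receptor, which binds apolipoprotein E particles and also the secreted neuronal guidance protein reelin. ZNF503 encodes a zinc finger protein of the NET family, relatives of which act as transcriptional repressors. No function of the 3 noncoding RNAs is assumed here.

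The start regions of the pairs are shown first, because they differ in how the noncoding RNA and the gene are arranged. Each is a 300-base window around a RefSeq start site (GRCh38.p14), written 5′ to 3′ on the strand of its own gene. Capitals mark matches, on either strand, to CCAAT (the box bound by NF-Y, read as ATTGG on the other strand) and to TGATGNAA (the core of the C/EBP-ATF response element, a site type known for example from the ASNS promoter).
GOT1-DT, chr10:99430686-99430985, plus strand: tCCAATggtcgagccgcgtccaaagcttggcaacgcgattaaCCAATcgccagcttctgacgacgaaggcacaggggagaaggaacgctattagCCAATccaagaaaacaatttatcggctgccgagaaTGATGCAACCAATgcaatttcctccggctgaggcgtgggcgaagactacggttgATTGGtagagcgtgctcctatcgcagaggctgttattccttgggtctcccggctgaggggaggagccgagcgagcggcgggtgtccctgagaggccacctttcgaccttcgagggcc
GOT1, chr10:99430575-99430874, minus strand: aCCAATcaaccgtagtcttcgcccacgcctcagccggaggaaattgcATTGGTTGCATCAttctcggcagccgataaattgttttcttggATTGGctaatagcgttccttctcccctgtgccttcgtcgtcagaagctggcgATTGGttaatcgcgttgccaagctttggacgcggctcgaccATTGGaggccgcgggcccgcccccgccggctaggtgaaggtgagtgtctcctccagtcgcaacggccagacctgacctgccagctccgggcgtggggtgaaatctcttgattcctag
VLDLR-AS1, chr9:2622324-2622623, minus strand: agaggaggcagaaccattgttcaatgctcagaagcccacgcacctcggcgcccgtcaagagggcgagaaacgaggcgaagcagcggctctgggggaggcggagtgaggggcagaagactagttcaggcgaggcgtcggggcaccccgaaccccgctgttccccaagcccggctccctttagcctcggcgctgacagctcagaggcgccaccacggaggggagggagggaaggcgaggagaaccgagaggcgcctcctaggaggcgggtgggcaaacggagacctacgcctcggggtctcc
VLDLR, chr9:2621537-2621836, plus strand: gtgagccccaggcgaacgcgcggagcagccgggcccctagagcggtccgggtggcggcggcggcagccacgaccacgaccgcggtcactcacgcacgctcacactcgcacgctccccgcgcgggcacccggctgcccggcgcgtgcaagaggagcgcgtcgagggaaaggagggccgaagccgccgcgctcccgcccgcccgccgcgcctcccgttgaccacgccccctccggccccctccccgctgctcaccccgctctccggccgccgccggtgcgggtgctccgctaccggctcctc
ZNF503-AS2, chr10:75402804-75403103, plus strand: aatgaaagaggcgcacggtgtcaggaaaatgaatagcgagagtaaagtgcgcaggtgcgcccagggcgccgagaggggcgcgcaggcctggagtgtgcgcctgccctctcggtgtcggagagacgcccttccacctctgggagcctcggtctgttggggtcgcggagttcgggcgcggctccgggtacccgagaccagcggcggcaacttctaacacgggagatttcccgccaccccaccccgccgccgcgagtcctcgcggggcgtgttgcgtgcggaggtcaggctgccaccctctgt
The GOT1-DT and GOT1 windows overlapped by 189 bases (chr10:99430686-99430874), read in opposite directions, and their RefSeq start sites lay 312 bases apart. All 5 CCAAT matches and the 1 TGATGNAA match of each window fell in that common stretch. Of 35116 RefSeq windows of this length, 126 (0.359%) held at least 5 CCAAT matches, 34.6% held at least 1, and 3.62% held TGATGNAA. The VLDLR-AS1, VLDLR and ZNF503-AS2 windows shown held neither set of letters. A ZNF503 window not shown (start at 75401764) held 2 CCAAT matches, and 10.8% of all windows held at least that many. Another not shown (start at 75401916), nearer to the start of the counted ZNF503 transcript at 75401906, held 0 CCAAT matches. GC content was 57.3% in the GOT1-DT window, 58.0% in the GOT1 window, 67.3% for VLDLR-AS1, 79.0% for VLDLR and 68.0% for ZNF503-AS2. The letters GGGCGG, the core of a GC box, stood 2 times in the VLDLR window, 1 time in the GOT1 window and not in the other 3 shown, while 45.0% of all windows held them. The E-box letters CACGTG, found in 7.26% of all windows, occurred in no member's window. The same held for TATAAA, the TATA box, found in 11.5%. A match is a description of letters, and binding was not measured. The windows do not all belong to the transcripts that carried the counts. The GOT1 window's start site is that of ENST00000471741, with 4 counts over each group, while ENST00000370508, with 99.6% of GOT1 counts, starts at 99431569 in the annotation used for counting, so the window lies inside that transcript's span. The VLDLR-AS1 window's start site is that of ENST00000453601, which had 5 counts in control replicate 2 and 0 in every other library. The VLDLR-AS1 forms that carried most counts start elsewhere, at 2643359 and 2621386.

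In the annotation used for counting per gene here (GENCODE release 29, GRCh38), GOT1-DT (ENSG00000224934) ran from 99430919 to 99461743 on the plus strand of chromosome 10, and GOT1 (ENSG00000120053) from 99396870 to 99431569 on the minus strand. Their exons shared 651 bases, all of them upstream of the RefSeq start site of GOT1 at 99430624. VLDLR-AS1 (ENSG00000236404) ran from 2421597 to 2643359 on the minus strand of chromosome 9, and VLDLR (ENSG00000147852) from 2621834 to 2660053 on the plus strand. The 2 genes shared 738 exon bases. ZNF503-AS2 (ENSG00000237149) ran from 75401519 to 75408982 on the plus strand of chromosome 10, and ZNF503 (ENSG00000165655) from 75397830 to 75401906 on the minus strand, with 388 shared exon bases. The labels do not say whether counting used strand. Without strand, reads from shared bases cannot be told apart between a gene and its antisense partner, so the values below are also given for transcripts that lie outside the shared bases.

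**Figure D1:**
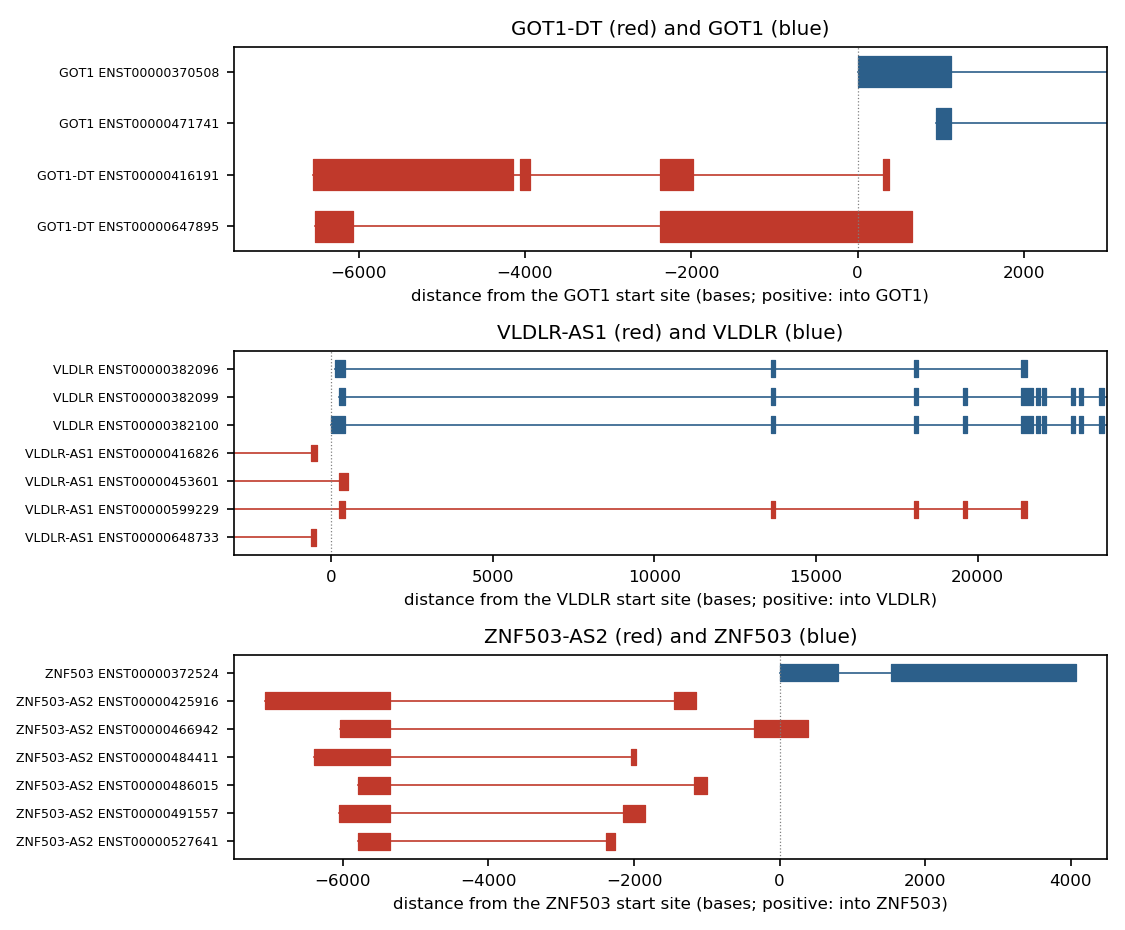
Exons (boxes) of the transcripts with a count, drawn by distance in bases from the start of the partner's most abundant transcript, positive into the partner; noncoding RNAs are red and partners blue, and transcripts outside the range drawn are left out. GOT1-DT and ZNF503-AS2 run away from the partner. The GOT1-DT transcripts drawn overlap its first exon, and of the ZNF503-AS2 transcripts only ENST00000466942 does. VLDLR-AS1 ENST00000599229 has 5 exons on top of VLDLR exons.

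GOT1-DT, annotated as a bidirectional promoter RNA, was the noncoding member furthest above control. It had 187, 205, 190 and 145 counts in KCNQ3-overexpressing libraries, against 88, 63, 77 and 90 in controls. On the CPM scale these were 7.02, 8.48, 7.09 and 6.01 CPM in overexpressing cells and 2.85, 2.38, 3.22 and 3.58 CPM in controls. The lowest overexpressing library stood above the highest control, and the groups did not overlap. The means were 7.15 ± 1.01 CPM and 3.01 ± 0.511 CPM (SD, n = 4 each), a fitted fold of 2.38 (log2 fold change 1.25, SE 0.14). Because RNA came from whole cultures, the share of cells with the RNA and its amount per cell cannot be told apart, here and below. Per length, GOT1-DT had 3.30 ± 0.463 TPM in overexpressing cells and 1.41 ± 0.175 TPM in controls.

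GOT1, the partner enzyme, had 72.0, 66.8, 63.5 and 64.5 CPM in overexpressing libraries, against 72.4, 72.3, 77.8 and 69.4 CPM in controls. The groups overlapped, with overexpressing replicate 1 inside the range of the controls. The means were 66.7 ± 3.80 CPM and 73.0 ± 3.48 CPM (SD, n = 4 each), and the log2 fold change was -0.13 (SE 0.05). The noncoding change minus the partner change was thus 1.38 on the log2 scale. GOT1-DT stood at 6.17 ± 0.951% of the GOT1 TPM in overexpressing cells and 2.34 ± 0.403% in controls, without overlap.

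Both counted transcripts of GOT1-DT had higher sums in overexpressing cells. ENST00000647895, whose first exon holds the 651 bases shared with GOT1, had 163, 161, 162 and 123 counts in overexpressing libraries, against 88, 37, 77 and 90 in controls. The shared bases made up 18.7% of its length. ENST00000416191, spliced, with 75 bases in GOT1 exons, had 24, 44, 28 and 22 counts in overexpressing libraries, against 0, 26, 0 and 0 in controls, so control replicate 2 alone carried it among the controls. Summed over groups, the ratio was 2.18 for the first (exact 95% interval 1.89 to 2.51) and 4.74 for the second (3.08 to 7.56); these intervals cover counting error only. GOT1 ENST00000370508 carried 99.6% of the GOT1 counts and was not higher in overexpressing cells (66.4 ± 3.85 CPM against 72.7 ± 3.44 CPM in controls). No GOT1-DT transcript with counts lay wholly outside GOT1 exons, so a count free of the overlap could not be formed for this pair.

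VLDLR-AS1 was the noncoding member below control. It had 25, 32, 28 and 15 counts in overexpressing libraries, against 75, 48, 61 and 63 in controls, the thinnest counts of the 6 genes. These were 0.938, 1.32, 1.04 and 0.622 CPM in overexpressing cells and 2.43, 1.82, 2.55 and 2.51 CPM in controls. Every overexpressing library stood below every control. The means were 0.982 ± 0.290 CPM and 2.33 ± 0.343 CPM (SD, n = 4 each), a fold of 0.424 (log2 fold change -1.24, SE 0.20).

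VLDLR, the receptor gene, had 21.3, 18.9, 20.2 and 16.0 CPM in overexpressing libraries, against 23.3, 21.0, 24.6 and 20.2 CPM in controls. The groups overlapped through overexpressing replicate 1, and the other 3 overexpressing libraries lay below all controls, replicate 3 only just. The means were 19.1 ± 2.27 CPM and 22.3 ± 2.04 CPM (SD, n = 4 each), and the log2 fold change was -0.22 (SE 0.09). VLDLR-AS1 minus VLDLR came to -1.02 on the log2 scale. This is the 1 pair of the 3 in which noncoding RNA and partner both stood lower on the CPM scale.

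On the TPM scale VLDLR went the other way, with 4.11, 6.42, 4.12 and 5.34 TPM in overexpressing libraries, against 4.50, 5.04, 4.68 and 4.03 TPM in controls. The groups overlapped here too, and overexpressing replicates 2 and 4 were the highest. The same libraries differed in how VLDLR counts were divided between transcripts. ENST00000382099, a shorter form of 3240 bases, took 4.06%, 53.6%, 6.28% and 47.9% of VLDLR counts in overexpressing replicates 1 to 4, against 2.79%, 4.69%, 4.07% and 7.68% in controls. The 9163-base form ENST00000382100 had 544, 210, 503 and 196 counts in overexpressing libraries, against 697, 516, 565 and 467 in controls. A count given to the shorter form weighs more in TPM. The level of VLDLR on that scale thus rests on how counts were divided in overexpressing replicates 2 and 4. Why the division differed there was not tested. VLDLR-AS1 stood at 21.2%, 17.5%, 21.2% and 7.17% of the VLDLR TPM in overexpressing libraries, against 49.7%, 36.9%, 42.7% and 54.5% in controls. On the CPM scale, with no scaling by length, it stood at 5.12 ± 1.36% of VLDLR in overexpressing cells and 10.5 ± 1.53% in controls.

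The most abundant VLDLR-AS1 transcript lies on top of VLDLR exons. ENST00000599229 has 8 exons, of which 5 overlapped VLDLR exons and 4 shared both boundaries with one, and 54.8% of its 1346 bases were shared. It had 17, 20, 17 and 6 counts in overexpressing libraries, against 46, 30, 31 and 43 in controls, a ratio of 0.418 (0.305 to 0.568). ENST00000648733, with 12 exons and none on VLDLR, had 8, 0, 11 and 9 counts in overexpressing libraries, against 29, 13, 30 and 20 in controls, a ratio of 0.318 (0.201 to 0.490). Both forms were therefore lower in every overexpressing library than in any control. In overexpressing replicate 2, where ENST00000648733 had 0 counts, ENST00000416826 had 12. That form also has no VLDLR bases, and it had 0 counts in every other library. The separation of ENST00000648733 thus depends on how counts were divided between these forms. All transcripts free of VLDLR bases summed to 8, 12, 11 and 9 counts in overexpressing libraries and 29, 13, 30 and 20 in controls. Their ratio was 0.454 (0.305 to 0.665), and their CPM ranges overlapped, because overexpressing replicate 2 and control replicate 2 lay close together. The lower VLDLR-AS1 count was thus present both in the part that shares VLDLR bases and in the part that does not.

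ZNF503-AS2 was the most abundant noncoding member per length (31.4 ± 3.20 TPM in overexpressing cells and 25.7 ± 1.80 TPM in controls) and the one with the smallest difference. It had 793, 683, 736 and 644 counts in overexpressing libraries, against 715, 599, 547 and 569 in controls. Scaled, these were 29.8, 28.3, 27.5 and 26.7 CPM in overexpressing cells and 23.2, 22.7, 22.9 and 22.6 CPM in controls. The groups did not overlap, and the controls lay within a narrow range. The means were 28.0 ± 1.31 CPM and 22.8 ± 0.254 CPM (SD, n = 4 each), a fold of 1.23 (log2 fold change 0.30, SE 0.05).

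ZNF503 was also the most abundant of the 6 genes per length (120 ± 12.3 TPM and 117 ± 11.1 TPM). It had 263, 237, 248 and 223 CPM in overexpressing libraries, against 242, 233, 233 and 212 CPM in controls. The groups overlapped. The means were 243 ± 16.7 CPM and 230 ± 13.0 CPM (SD, n = 4 each), and the log2 fold change was 0.08 (SE 0.06). ZNF503-AS2 minus ZNF503 was 0.22 on the log2 scale, the smallest of the 3 pair differences. Per length, ZNF503-AS2 stood at 26.2 ± 0.400% of the ZNF503 TPM in overexpressing cells and 22.0 ± 0.761% in controls, again without overlap. A second identifier that release 29 also names ZNF503 (ENSG00000270087, annotated as a long intergenic noncoding RNA) was counted apart from the protein-coding gene. This second identifier ran from 75279726 to 75401246 on the same strand, so its span overlapped that of ZNF503. Whether reads were divided between them was not tested. It had 182, 193, 195 and 23 counts in overexpressing libraries and 202, 40, 94 and 144 in controls.

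As the estimated counts were divided between transcripts, the higher ZNF503-AS2 count lay in those away from ZNF503. Those without ZNF503 bases held 78.1% of its counts and had 684, 557, 599 and 491 counts in overexpressing libraries, against 447, 510, 366 and 474 in controls. In CPM they averaged 22.9 ± 2.19 in overexpressing cells and 17.0 ± 2.44 in controls (SD, n = 4 each) and did not overlap, with a ratio of 1.36 (1.27 to 1.44). Among them ENST00000425916, whose RefSeq start region is the ZNF503-AS2 window shown above, had 333, 374, 363 and 338 counts in overexpressing libraries, against 314, 309, 214 and 310 in controls. ENST00000466942, which holds the 388 bases shared with ZNF503, had 109, 126, 137 and 153 counts in overexpressing libraries, against 268, 89, 181 and 95 in controls. Its groups overlapped, and its ratio was 0.867 (0.771 to 0.975). ENST00000484411, free of ZNF503 bases, had 1, 44, 0 and 65 counts in controls, low where ENST00000466942 was high. The ratios with and without ZNF503 bases thus depend on how counts were divided between these forms. They do not settle where in the gene the higher count arose.

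**Figure D2:**
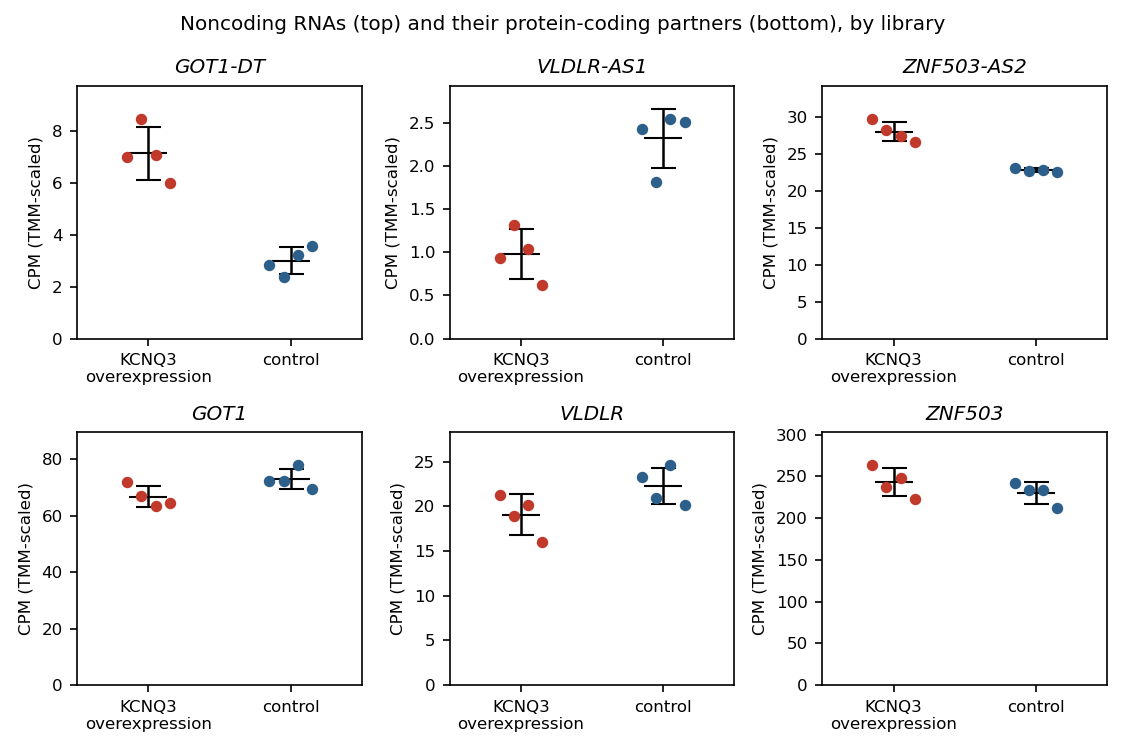
Level of each gene in CPM (TMM-scaled) in the 4 KCNQ3-overexpressing (red, left) and 4 control (blue, right) libraries; points are libraries and bars are mean ± SD. The groups are separate for GOT1-DT, VLDLR-AS1 and ZNF503-AS2 and overlap for GOT1, VLDLR and ZNF503.

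**Figure D3:**
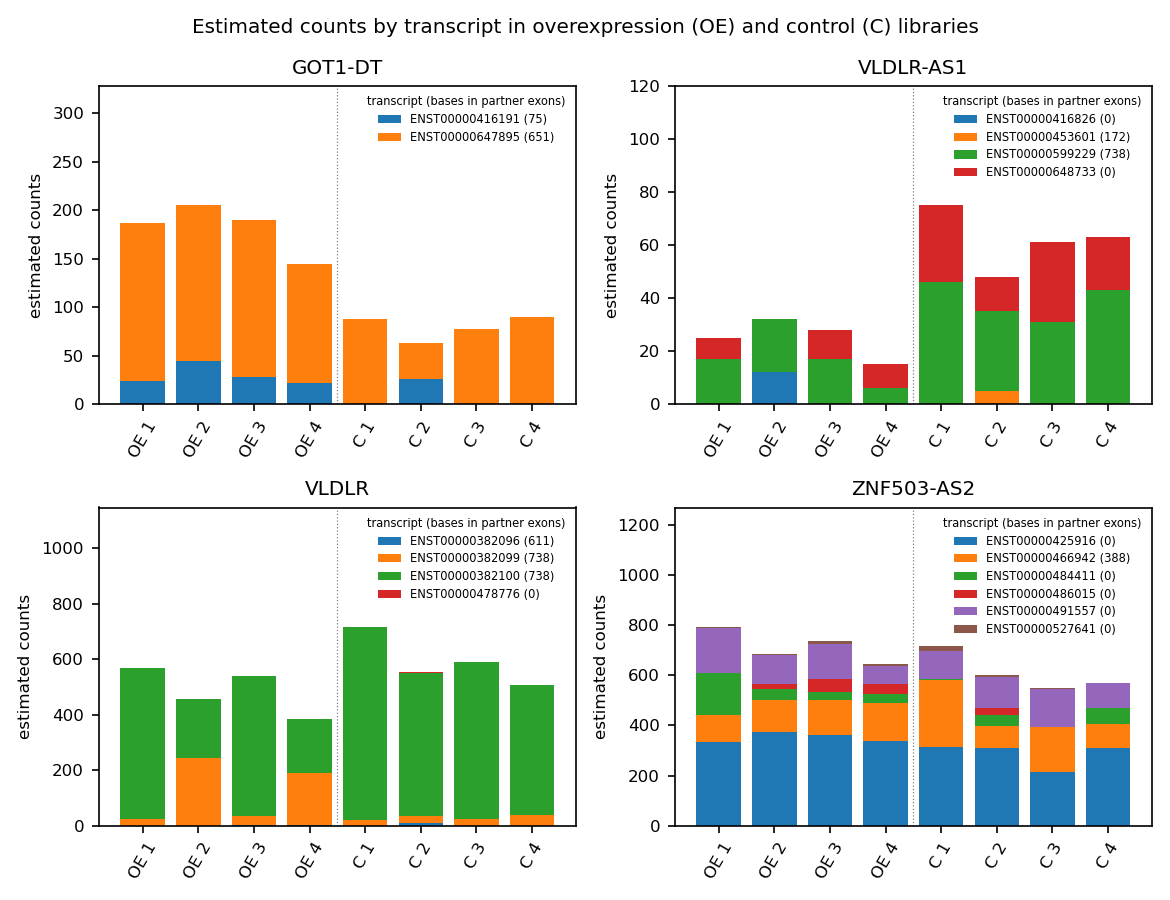
Estimated counts by transcript (stacked colours) in overexpressing (OE 1 to 4, left) and control (C 1 to 4, right) libraries, with the bases each transcript shares with the partner's exons in brackets. GOT1-DT is taller and VLDLR-AS1 shorter in all 4 overexpressing libraries, and VLDLR is divided differently in overexpressing replicates 2 and 4.

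**Figure D4:**
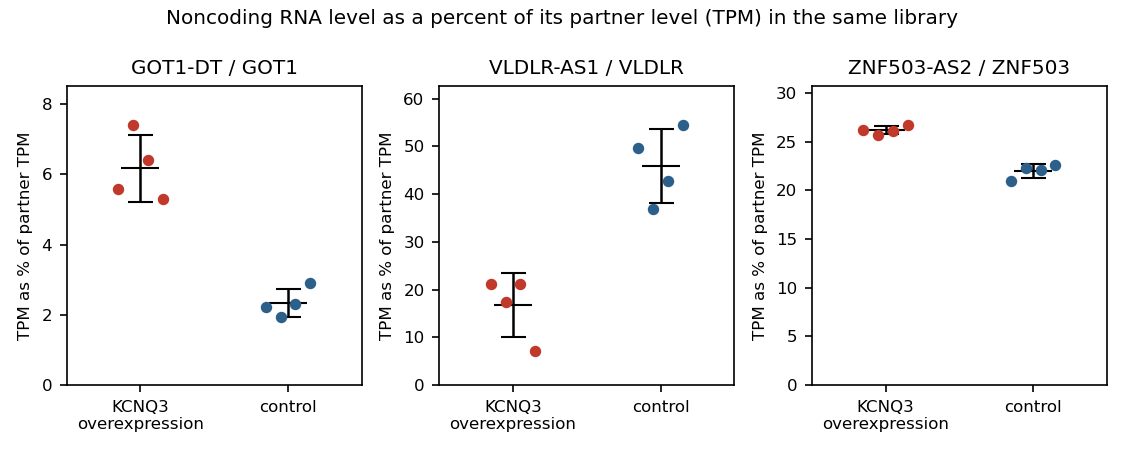
Noncoding level as a percent of the partner's level (TPM) in each overexpressing (red, left) and control (blue, right) library; bars are mean ± SD. In all 3 pairs the groups are separate. The means are 6.17% against 2.34% for GOT1-DT, 16.8% against 46.0% for VLDLR-AS1 and 26.2% against 22.0% for ZNF503-AS2. The VLDLR TPM rests on how counts were divided between transcripts in overexpressing replicates 2 and 4, and why they differed was not tested. On the CPM scale VLDLR-AS1 stood at 5.12% of VLDLR against 10.5%.

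Across all genes, edgeR's quasi-likelihood test placed 58 of 19280 (0.301%) past a Benjamini-Hochberg adjusted p of 0.05. Of these, 21 (0.109%) were higher and 37 (0.192%) lower in overexpressing cells. The 3 noncoding members are among these calls because they were selected on them. Their adjusted p values in that fit were 0.00783 for GOT1-DT, 0.0372 for ZNF503-AS2 and 0.0382 for VLDLR-AS1. The values nearest the threshold were 0.0442 for SNAP25 and 0.0498 for ENSG00000279716 inside it, and 0.0505 for RAB3GAP1 and 0.0507 for VEGFA outside it. The groups did not overlap for 2237 of all genes tested (11.6%). An unadjusted p under 0.05 was reached by 3737 of them (19.4%). DESeq2 called 727 of the 14974 genes to which it gave an adjusted p (4.86%).

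Genes named by the annotation as divergent (X-DT) or antisense (X-AS) to a gene X gave the surroundings of the 3 noncoding members. Of 2420 such genes 700 could be tested, and 4 (0.571%) passed the threshold, against 0.301% of all genes tested. Of these 4, 3 are the noncoding members, which were selected on this contrast. The fourth was HOXA11-AS, antisense at the HOXA11 developmental gene, with 23.5 ± 1.69 CPM in overexpressing cells and 17.5 ± 1.16 CPM in controls (SD, n = 4 each; log2 fold change 0.43, SE 0.07; edgeR adjusted p = 0.0372). Those nearest outside were SLC9A3-AS1 (adjusted p 0.0617) and IQCH-AS1 (0.0628). The median log2 fold change of all genes tested was 0.01, with 10133 above 0 and 9147 below. That of the 700 was 0.09, with 447 above 0 and 253 below. Their groups did not overlap in 60 cases (8.57%), against 11.6% of all genes tested. Their median level was 1.61 CPM, against 16.9 CPM for all genes tested, on a scale not corrected for length.

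Both genes of a pair were tested for 658 pairs, and for the 655 pairs other than the 3 described the 2 changes had the same sign in 333 (50.8%). The median size of the log2 fold change was 0.20 for the noncoding RNA and 0.10 for its partner, and the median size of the difference was 0.22. A difference at least as large as that of GOT1-DT and GOT1 was found in 10 of the other pairs, and one at least as large as that of VLDLR-AS1 and VLDLR in 20. The ZNF503-AS2 difference was near the middle, with 325 pairs at least as large. Where the start sites of a pair lay within 1000 bases on opposite strands, as a divergent promoter would have them, 184 of 362 pairs had the same sign. Among the 439 other pairs with a noncoding RNA of at least 1 CPM, 6 had a difference at least as large as that of the GOT1 pair. The numbers were 11 for the VLDLR pair and 207 for the ZNF503 pair. The 3 noncoding members were selected on this contrast and the other pairs were not, so these places are a description.

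**Figure D5:**
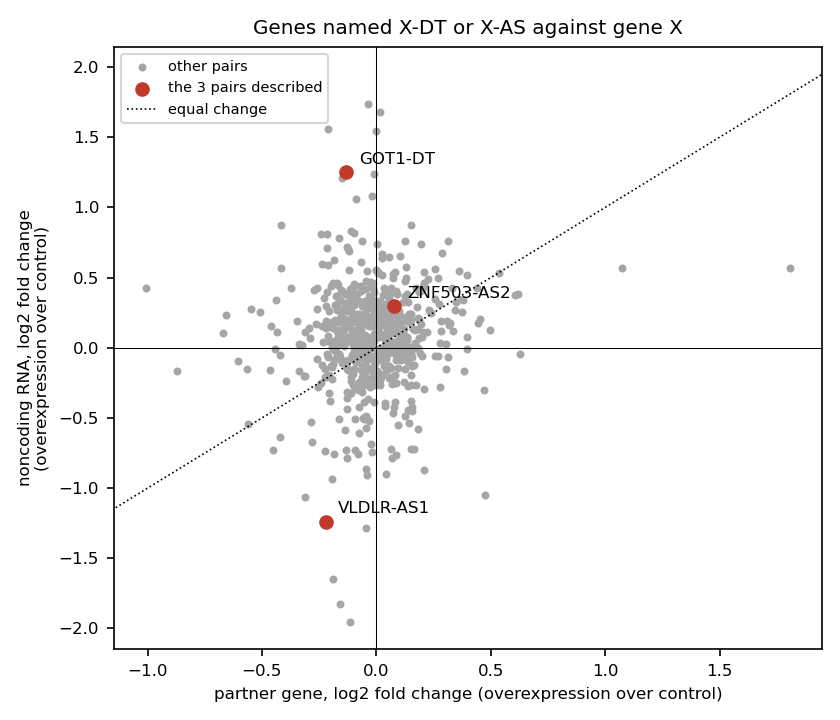
Log2 fold change (overexpression over control) of each gene named X-DT or X-AS against that of gene X for 658 pairs; red points are the 3 pairs described, grey points the other 655, and the dotted line is equal change. GOT1-DT and VLDLR-AS1 lie far above and below most pairs while their partners stay near 0, and ZNF503-AS2 lies within the main cloud.

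The nearest tested gene on each side of a pair was taken as a check of the neighbourhood. Next to the GOT1 pair, CNNM1 had 11.4 ± 0.729 CPM in overexpressing cells and 10.9 ± 0.613 CPM in controls, and the homeobox gene NKX2-3 had 1.29 ± 0.190 and 1.50 ± 0.306 CPM. Next to the VLDLR pair, the chromatin remodeller SMARCA2 had 35.6 ± 3.65 CPM in overexpressing cells and 40.8 ± 1.88 CPM in controls, without overlap, and PUM3 had 31.0 ± 2.12 and 29.8 ± 1.31 CPM. Next to the ZNF503 pair, ZNF503-AS1 had 0.657 ± 0.340 CPM in overexpressing cells and 0.637 ± 0.600 CPM in controls, and ENSG00000272692 had 4.83 ± 0.850 and 3.95 ± 0.701 CPM. In edgeR's test 0 of these 6 genes passed the threshold, with 1 at an unadjusted p under 0.05 (19.4% of all genes), and DESeq2 called 0 of the 4 that had an adjusted p.

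Genes that work with the 3 protein-coding partners were counted in lists chosen with earlier results of these data known. Of 20 tested genes of aspartate metabolism and the malate-aspartate shuttle, 11 had a log2 fold change above 0 and 9 below. In edgeR's test 0 passed the threshold as higher and 1 as lower, where 0.301% of all genes passed in either direction. That gene was ASNS, which makes asparagine from the aspartate that GOT1 helps to supply, with 468 ± 15.6 CPM in overexpressing cells and 638 ± 33.7 CPM in controls (SD, n = 4 each; log2 fold change -0.45, SE 0.05; edgeR adjusted p = 0.00783). In that list 9 of 20 genes had an unadjusted p under 0.05, against 19.4% of all genes tested. DESeq2 called 2 of 19 (ASNS and ASS1), against 4.86% of all genes, and the median log2 fold change was 0.02. Of 21 lipoprotein receptor and reelin pathway genes edgeR called 0, with 5 at an unadjusted p under 0.05, near the 19.4% of all genes. DESeq2 called 1 of 20, FYN, near its 4.86% of all genes, and the median was -0.03. The adaptor CRKL, with the most counts of the list, had 189 ± 10.7 CPM in overexpressing cells and 194 ± 7.92 CPM in controls. Of 17 genes of the NET zinc finger and Groucho corepressor group edgeR called 0, with 4 at an unadjusted p under 0.05 (19.4% of all genes). DESeq2 called 2 of 17, SP1 and SP3 (4.86% of all genes), and the median was -0.04. ZNF703, the paralogue of ZNF503, had 407 ± 29.5 CPM in overexpressing cells and 414 ± 23.6 CPM in controls. Of 28 genes of the exosome and other machinery that ends or degrades noncoding transcripts edgeR and DESeq2 each called 0, with 7 at an unadjusted edgeR p under 0.05, near the 19.4% of all genes. The exosome nuclease DIS3 had 224 ± 4.94 CPM in overexpressing cells and 225 ± 4.28 CPM in controls. The median of all genes tested was 0.01.

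The genes whose pattern over the 8 libraries was most like that of each noncoding member were found by the root mean square difference of centred log2 CPM over 16748 genes with at least 1 CPM on average. For GOT1-DT these were ENSG00000279716 (0.23), ENSG00000279278 (0.23) and PRR22 (0.28), and GOT1 ranked 13321 (0.71). For VLDLR-AS1 they were SH2D3C (0.28), PLXNB3 (0.28) and IQUB (0.32), and VLDLR ranked 438 (0.55). For ZNF503-AS2 they were the ribosome biogenesis factors NOP16 (0.04) and RBM19 (0.05) and the DNA-binding protein gene JRK (0.05), and ZNF503 ranked 1330 (0.12). All of these share the libraries and the difference between groups by which the members were selected, so the likeness is a description of these 8 libraries. A partner whose difference between groups was unlike that of the noncoding member had to lie further off in this measure. The ranks of the partners therefore largely restate the pair differences given above.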

How the data were processed

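RNA sequencing of 8 HEK293T libraries was used, 4 with KCNQ3 overexpression and 4 controls. The submitters' processing notes name StringTie 2.1.0, HISAT2 2.1.0, SAMtools 1.9, cutadapt 2.8 and FastQC 0.11.5 and genome build GRCh38.p13, without the role of each. The annotation release and any use of strand are not given in the sources. For each transcript the authors deposited an estimated count, already a whole number, and a TPM value, which is scaled by length. Being estimates, they split reads that overlapping transcripts share.

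Transcript identifiers were looked up in GENCODE release 29 and symbols updated; in that release GOT1-DT is AL391684.1; 205804 of 227751 transcripts matched, with 98.7% to 98.9% of counts. Counts were summed per gene and fitted with edgeR 4.0.16 (R 4.3.3; quasi-likelihood, TMM, robust; filterByExpr, minimum count 10 and total 15; Benjamini-Hochberg, 0.05) on 19280 genes. TPM was tested with limma 3.58.1 on log2(TPM + 1) or log2(TPM + 0.1), and counts also with DESeq2 1.42.0, as alternatives. Log2 fold changes are overexpression over control. Ratios of summed counts have exact 95% intervals that cover counting error only. The fit was tested on simulated data. Chi-square per degree of freedom between replicates ran from 9.72 to 18.6, so none was counted as a copy.

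The members and all gene lists were chosen with earlier results of these data known. Besides the members, the genes named were the nearest tested gene on each side of a pair, all called X-DT and X-AS genes, up to 4 called or the most abundant members of each list (not all printed), the 3 genes most like each noncoding member, KCNQ3, and those nearest the threshold. ASS1, FYN, SP1 and SP3 were named after their values were seen. Promoter windows are RefSeq's (GRCh38.p14).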

Additional observations from a re-analysis of the deposited data

Results flagged for a closer look

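Of 30 groups of 4 libraries examined among the members' values, 3 held 1 library set apart from the other 3 by a gap that is large against the group's range (Dixon's 95% criterion); chance alone would flag about 1 in 20 groups. GOT1 in KCNQ3-overexpressing replicate 1 stood at 60.9 TPM, above the 51.8, 50.7 and 51.3 TPM of the other overexpressing libraries. VLDLR-AS1 in control replicate 2 stood at 1.82 CPM, below the 2.43, 2.55 and 2.51 CPM of the other controls. ZNF503-AS2 in control replicate 4 stood at 23.1 TPM, below the 26.9, 26.8 and 26.2 TPM of the other controls.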

How the results depend on the processing

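The noncoding members and the 3 pair differences kept their sign under every alternative that gave a value (17 or 18 each). GOT1-DT minus GOT1 was 1.01 with log2(TPM + 1), with or without a minimum mean of 0.5 TPM, and 1.29 to 1.50 with 1 library left out. VLDLR-AS1 minus VLDLR was -1.43 with log2(TPM + 0.1), -0.67 on the most abundant transcripts, and -1.19 to -0.93 with 1 library left out. ZNF503-AS2 minus ZNF503 was 0.29 on the most abundant transcripts and 0.20 to 0.25 with 1 library left out. On log2(TPM + 1), filtered or not, GOT1-DT came to 0.83 and VLDLR-AS1 to -0.78. VLDLR came to 0.09 on log2(TPM + 1), filtered or not, 0.11 on log2(TPM + 0.1) and -0.60 on its most abundant transcript. ZNF503-AS2 came to 0.43 on transcripts free of ZNF503 bases and 0.35 on its most abundant transcript. That setting without shared bases gave no value for GOT1-DT, GOT1, VLDLR or ZNF503, with few or no counts left.

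Counts of calls moved far more. All genes past the threshold numbered 58, against 35 without scaling factors, 727 by DESeq2, 9 with log2(TPM + 1), 7 with it filtered, 11 with log2(TPM + 0.1), and 378, 8, 19 and 15 without overexpressing replicate 1, 2, 3 or 4 and 19, 20, 15 and 194 without control replicate 1, 2, 3 or 4. Divergent and antisense genes past it numbered 4, against 2 without scaling factors, 9 by DESeq2, 0 with log2(TPM + 1) and log2(TPM + 0.1), 1 with the TPM filter, and 6, 1, 2 and 1 without overexpressing replicate 1 to 4 and 1, 2, 1 and 10 without control replicate 1 to 4. The cause was not tested. GOT1-DT passed in 14 of 17 alternatives, VLDLR-AS1 in 5 of 17 and ZNF503-AS2 in 5 of 18. These 3 were selected on this contrast, so their passes describe the settings and are no test of them. ASNS passed in 15 of 18 (log2 fold change -0.50 to -0.43) and HOXA11-AS in 7 of 18 (0.37 to 0.47). With the replicate number as a block the counts were 86 and 2. Deviations of same-numbered libraries from their group means had correlations of -0.05 to 0.01. The labels give no shared batch or day, and 4 libraries per group cannot exclude one, so whether the numbers pair the samples is not settled. VLDLR-AS1 is limited by depth, at 15 to 75 counts per library.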
